A study of Peromyscus maniculatus with 16 samples.

Results

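The genes described here were Pdilt, the testis-type protein disulfide isomerase, and 7 liver-expressed members of the same thioredoxin-fold family, P4hb, Pdia3, Pdia4, Pdia5, Pdia6, Txndc5 and Erp44. These 8 genes were picked by symbol from the 16910 genes of the count table, and all 8 had rows in it and passed the filter on low counts (at least 0.5 CPM, the read count scaled to a common library size, in at least 1 animal, which 12639 genes passed). Pdilt was chosen by its fold change between the groups, so its levels and folds are a description without a test. The other 7 were chosen by family membership and were tested. RNA-seq had been performed on the liver of 16 captive-bred deer mice (Peromyscus maniculatus), 10 months of age at termination, which were kept for 28 weeks on chow or on a diet rich in fat and sucrose (HFD). The 6 animals on chow were the control group (C), the 5 animals that stayed free of steatosis on HFD were the NS group, and the 5 that developed it were the S group, so S and NS differed in outcome and not in an assigned treatment. The 16 animals came from a pair of closed, outbred stocks founded from wild-caught animals, with 13 animals of the BW stock (P. maniculatus bairdii) and 3 of the SM2 stock (P. maniculatus sonoriensis), 1 in each group. All C and NS animals were male, and the S group held 3 females, all BW, and 2 males. The comparisons ask how liver RNA differs with diet (NS vs C), with diet and steatosis (S vs C), and with steatosis on the same diet (S vs NS). None of them isolates its factor, since NS was set apart by outcome among the HFD animals and only S held females.

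Protein disulfide isomerases reside in the endoplasmic reticulum (ER), where they form, break and rearrange the disulfide bonds of newly made secretory and membrane proteins. Their reduced active sites are reoxidised mainly by the ER oxidases of the ERO1 family, and several members work with partner proteins, P4hb with the lipid-transfer protein Mttp and the collagen prolyl hydroxylases, Pdia3 with the lectin chaperones calnexin and calreticulin, and Pdia6 with the Hsp70 chaperone BiP. Hepatocytes, which secrete most plasma proteins and assemble very-low-density lipoproteins, use this machinery heavily. Pdilt differs from the family in that it lacks the redox-active cysteine pair, is known as a testis protein, and works there with the germ-cell chaperones calmegin (Clgn) and calreticulin 3 (Calr3) in sperm protein folding. A gene that is known from the testis was thus measured here in liver.

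The total count per animal was 4640733 to 11349971, and the 8 genes together took 0.26% to 0.334% of the counts in C, 0.304% to 0.392% in NS and 0.279% to 0.375% in S. Levels are given as TMM-normalized CPM (CPM after the trimmed-mean scaling between libraries). The S animal 36016 stood apart from the other 15, with the lowest total count and with the collagen genes Col1a1 and Col1a2 at 2058 and 1059 CPM, where no other animal exceeded 17.0 and 47.0 CPM. S vs C is therefore also given without it for the 8 genes and for the calls among related genes. Of the 10 hepatocyte markers listed, 7 were in the table and all 7 were abundant. Their summed level was 53700 to 69000 CPM in C, 54300 to 80500 in NS and 41200 to 61100 in S. In S vs C 4 of the 7 were called lower and 1 higher, beside 5.36% and 5.39% of all genes tested. The part of these markers in the differences given here was not tested.

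Pdilt transcripts were present at a low level in every C and NS liver and were at or near 0 in every S liver. The 6 C animals had 4.53, 2.50, 4.33, 4.72, 3.89 and 7.65 CPM. The 5 NS animals had 5.29, 0.765, 2.17, 5.70 and 2.31 CPM. The 5 S animals had 0.609, 0, 0.188, 0 and 0.381 CPM. The lowest NS value, in animal 35963, was thus above the highest S value, in animal 10880, and the C and NS ranges overlapped. Animal 35963 held 6 reads and animal 10880 held 5, so the gap between S and NS is within counting error.

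**Figure D1:**
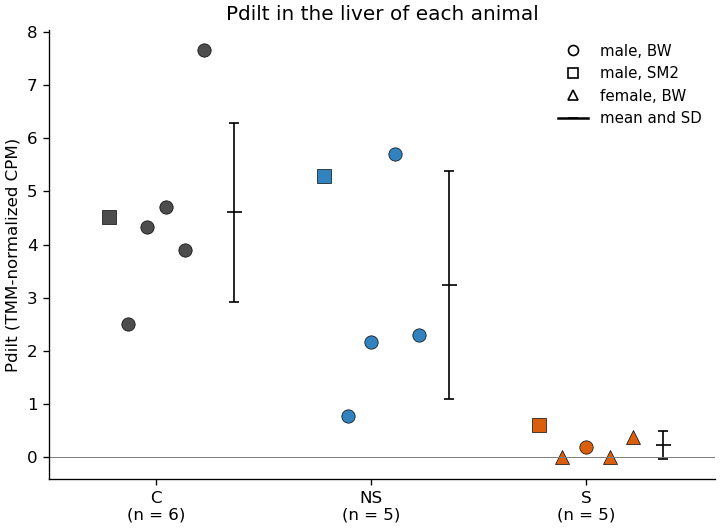
TMM-normalized CPM of Pdilt (y axis) in each animal of the 3 groups (x axis), with the group mean and SD to the right of the points. Squares are SM2 males, circles BW males and triangles BW females. All 5 S animals lie at or below 0.609 CPM, and all C and NS animals lie at or above 0.765 CPM.

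In reads, the S livers held 5, 0, 1, 0 and 4, a sum of 10, while the C livers held 16 to 69, a sum of 236, and the NS livers 6 to 47, a sum of 134. At the mean chow level, the S libraries would have held 37.8, 24.8, 24.5, 52.8 and 48.3 reads at their own depths. The 2 libraries with no read, S animals 35982 and 35955, allow up to 0.556 and 0.262 CPM (the level of 3 reads, which covers counting error only). Both limits lie below every C and NS value.

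The group means of Pdilt were 4.60 ± 1.69 CPM in C (SD, n = 6), 3.25 ± 2.15 in NS (n = 5) and 0.236 ± 0.262 in S (n = 5). The median summed level of the hepatocyte markers was 61700, 57800 and 44100 CPM in the same order. The mean of Pdilt was 19.5-fold higher in C than in S, 13.8-fold higher in NS than in S, and 1.42-fold higher in C than in NS. The fit over all genes gave log2 fold changes of -4.16 (SE 0.69) in S vs C, -3.65 (SE 0.70) in S vs NS and -0.50 (SE 0.54) in NS vs C. Over all genes tested, the ranges of the groups did not overlap for 4.19% of genes in S vs C, 1.18% in S vs NS and 0.989% in NS vs C. These shares are given beside Pdilt as the background only, since the gene was selected on the same contrasts. Because S vs C and S vs NS share the S animals, the 2 values are not separate evidence.

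The fold of Pdilt depended on which S animals entered. Its direction could not, since the gene was chosen by its fold and its S range overlapped neither C nor NS. All 3 S females had 0 to 0.381 CPM and the 2 S males had 0.188 and 0.609 CPM, so the S males alone were below all 11 C and NS males. The closest pair, S male 10880 and NS male 35963, held 5 and 6 reads. All females were in S, so sex as a term and male animals alone both set the 2 S males against C. They are not separate checks. With sex as a term in the fit the log2 fold change in S vs C was -3.40, with male animals alone it was -3.39, and with BW animals alone it was -4.81. Without the SM2 animal 10880, which held the most Pdilt reads of the S group, it was -4.80, and without animal 36016 it was -4.10. In bulk liver, fewer cells that express a gene and less of its RNA per cell cannot be told apart.

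Stock did not order Pdilt in the same way in every group, and sex varied within S alone. The SM2 animals of C, NS and S were at 4.53, 5.29 and 0.609 CPM. In C and NS these values lay within the range of the BW animals, which ran from 2.50 to 7.65 and from 0.765 to 5.70 CPM, and in S the SM2 animal was the highest. The 3 S females held 4 reads in all and the 2 S males 6. No test was made of these values.

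Pdilt RNA in these livers was not accompanied by that of calmegin or of several defining male germ cell genes. Clgn, the calmegin gene, had no read in any animal. Of 16 male germ cell markers listed, 13 were in the table, and the protamine Prm2, the transition protein Tnp1, the germ-cell RNA-binding gene Dazl, and Acrv1, Odf1 and Akap4 were at 0 in all 16 animals. The summed level of the list was 63.1 to 121 CPM in C, 30.5 to 86.9 in NS and 36.2 to 70.6 in S, nearly all of it from Calr3 and the meiotic gene Sycp3. Of the 3 genes of the list that could be tested, 2 were called lower in S vs C, beside 5.36% of all genes tested. Sycp3 had means of 12.86, 7.61 and 5.06 CPM in C, NS and S, the same order as Pdilt. Its C and S ranges did not overlap (7.66 to 19.97 and 3.53 to 7.41 CPM), and NS overlapped both. Tssk1 had 34, 37 and 25 reads in C, NS and S, Ddx4 had 1, 4 and 8, and Zpbp had 5, 1 and 2. Tnp2 had 1 read, in S, and Spata16 had 1, in NS.

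Calr3, the calreticulin paralog that partners Pdilt in the testis, was lower in S than in C, but its NS mean lay closer to S than to C. It was at 53.7 to 105 CPM in C (mean 80.2 ± 19.3, SD, n = 6), 26.1 to 74.6 in NS (53.8 ± 19.5, n = 5) and 30.6 to 64.4 in S (48.1 ± 13.1, n = 5). Its log2 fold change was -0.74 in S vs C (SE 0.25, edgeR adjusted p = 0.0966) and -0.58 in NS vs C (SE 0.25, edgeR adjusted p = 0.594). In S vs NS it was -0.16 (SE 0.26, edgeR adjusted p = 0.859). As each animal was left out the log2 fold change in S vs C ran from -0.87 to -0.61 and the call was kept in 5 of the 16 fits. Without animal 36016 it was -0.68 (edgeR adjusted p = 0.179). The Calr3 ranges of C and S overlapped, unlike those of Pdilt.

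The expressed genes next to Pdilt on its chromosome kept most of their level in the S livers. In the RefSeq gene order of another deer mouse assembly, HU_Pman_BW_mat_3.1, the kidney gene Umod, the pancreatic gene Gp2 and the receptor gene Gpr139 lie on one side of Pdilt, and all 3 had no read in any animal. On the other side lies a cluster of medium-chain acyl-CoA synthetase genes, which hepatocytes express. Acsm5, the nearest of these, was at 610 ± 167 CPM in C (SD, n = 6), 607 ± 100.3 in NS (n = 5) and 531 ± 173 in S (n = 5), with a log2 fold change of -0.20 in S vs C (SE 0.22, edgeR adjusted p = 0.606). Acsm1 was at 518 ± 130.1, 405 ± 98.1 and 296 ± 141 CPM and was called lower in S vs C at -0.81 (SE 0.27, edgeR adjusted p = 0.0906), a call kept in 4 of the 16 fits that left out 1 animal. Acsm3 was at 187 ± 91.1, 88.0 ± 64.8 and 187 ± 74.6 CPM, and Acsm4 had 1 read in all. Thumpd1, a tRNA-modification gene, was at 11.3 ± 2.61, 10.8 ± 2.83 and 12.5 ± 3.06 CPM. Acsm2 was at 513 ± 71.1, 396 ± 88.5 and 401 ± 203 CPM and Eri2, an exonuclease gene, at 10.2 ± 1.66, 11.4 ± 1.20 and 10.2 ± 2.89 CPM. Dnah3, a ciliary dynein gene, had 6, 7 and 1 reads in C, NS and S. None of the tested neighbours other than Acsm1 was called in S vs C, where 10.8% of all genes tested were called.

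Across the 16 animals, the genes whose level ranked most like that of Pdilt, among the 10325 genes with a mean of at least 1 CPM, were Raly (Spearman rho 0.943), Rbp4 (0.912), Cd302 (0.907), Snf8 (0.898) and Eva1c (0.890). Raly encodes an RNA-binding protein, Rbp4 the plasma retinol-binding protein that hepatocytes secrete, and Snf8 a subunit of the endosomal sorting machinery. Rbp4 had means of 7718, 6689 and 4131 CPM in C, NS and S, and Raly of 150.1, 142.5 and 114 CPM. Within the 11 C and NS animals, which leave out the low S group, the rho of these 5 genes with Pdilt was 0.800 to 0.873. Without the 2 animals with no Pdilt read, Pearson's r for Raly was 0.850 and for Rbp4 0.915. The genes that ranked most opposite to it were Adamts12 (rho -0.890), a secreted protease gene, Nhsl1 (-0.873) and Nub1 (-0.873), a regulator of ubiquitin-like protein turnover. All 16 points share the 3 groups and their depths, and the genes were picked from the whole table by rank, so these values carry no test. The animals of both subsets were part of that ranking, so the subset values are not separate checks.

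The 7 other family members were expressed in every liver at levels that left little room for counting error, from 424 reads upward. None of the 7 was called in any of the 3 comparisons at an adjusted p under 0.1, where 10.8% of all genes tested were called in S vs C, 0.0791% were in NS vs C and 0.00791% were in S vs NS. At an unadjusted p under 0.05 there were 2, 1 and 0 of the 7, in the same order (edgeR), beside 23.8%, 8.29% and 10.9% of all genes. DESeq2 called 2, 0 and 0 of the 7, beside 14.3%, 0.902% and 0.942% of all genes. In S vs C their log2 fold changes ran from -0.34 to 0.33 with a median of -0.06, beside 0.10 for all genes tested, and 3 were above 0 and 4 below. In NS vs C they ran from -0.19 to 0.25 (median 0.0027), and in S vs NS from -0.31 to 0.08 (median -0.08). Animal 36016 was the lowest of the S animals for each of the 7 genes. Without it, their median in S vs C was 0.03, beside 0.07 for all genes tested. P4hb was then at 0.18, Pdia3 at -0.23, Pdia4 at 0.03 and Pdia5 at 0.28 (edgeR adjusted p = 0.394, 0.449, 0.954 and 0.453).

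**Figure D2:**
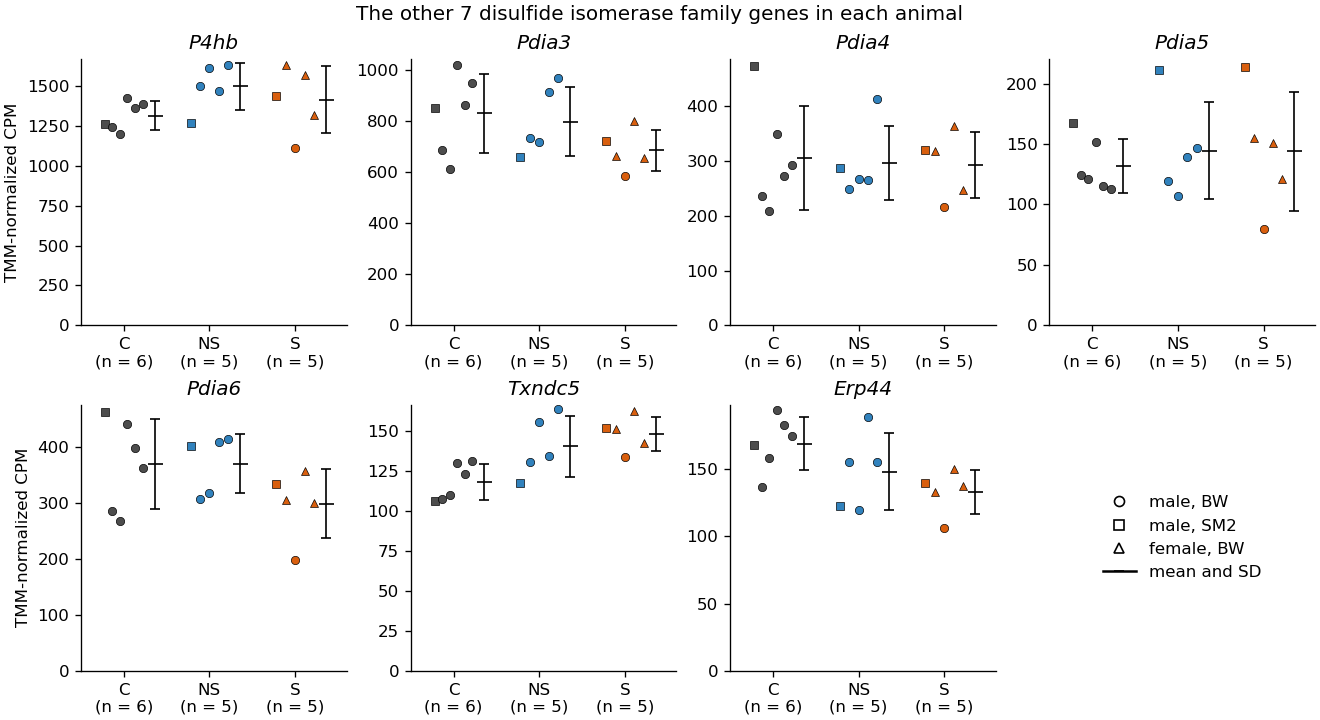
TMM-normalized CPM (y axes, each starting at 0) of the 7 liver-expressed family genes in each animal of C, NS and S (x axes), with group means and SDs to the right of the points. Squares are SM2 males, circles BW males and triangles BW females. The groups overlap in 6 of the 7 panels in S vs C, and for Txndc5 all S animals (134 CPM and above) lie above all C animals (131 CPM and below).

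P4hb encodes the founding protein disulfide isomerase, which also serves as the small subunit of microsomal triglyceride transfer protein. It was at 1195 to 1422 CPM in C (median 1312), at 1269, 1500, 1610, 1466 and 1633 CPM in the NS animals and at 1439, 1631, 1113, 1569 and 1320 CPM in the S animals. The S values ran from below every C and NS animal, in animal 36016, to the level of the highest NS animals. The log2 fold change was 0.11 in S vs C (SE 0.13, edgeR adjusted p = 0.628), 0.19 in NS vs C (SE 0.13, adjusted p = 0.718) and -0.08 in S vs NS (SE 0.13, adjusted p = 0.858).

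Pdia3 encodes ERp57, the isomerase that acts on glycoproteins held by calnexin and calreticulin. It was at 614 to 1023 CPM in C (median 858), at 659, 735, 718, 916 and 971 CPM in NS and at 721, 666, 587, 804 and 657 CPM in S. All 5 S animals lay below the 4 highest C animals, and the 2 lowest C animals were within the S range. The log2 fold change was -0.28 in S vs C (SE 0.16, edgeR adjusted p = 0.285), -0.06 in NS vs C (SE 0.16, adjusted p = 0.959) and -0.22 in S vs NS (SE 0.16, adjusted p = 0.628).

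Pdia6 encodes P5, an isomerase that associates with BiP. It was at 267 to 462 CPM in C (median 380), at 402, 306, 318, 408 and 413 CPM in NS and at 333, 304, 198, 357 and 300.1 CPM in S. No S animal reached the median of C, and the 2 lowest C animals lay within the S range. The log2 fold change was -0.31 in S vs C (SE 0.18, edgeR adjusted p = 0.304), 0.0027 in NS vs C (SE 0.18, adjusted p = 1) and -0.31 in S vs NS (SE 0.19, adjusted p = 0.548). Without animal 36016 the value in S vs C was -0.19 (edgeR adjusted p = 0.551).

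Pdia4 encodes ERp72, a larger isomerase found with BiP and GRP94 on unfolded clients. It was at 208 to 473 CPM in C (median 283), at 287, 249.7, 267, 265 and 414 CPM in NS and at 320, 319, 217, 364 and 247 CPM in S. The highest value of all was that of the SM2 control animal 10876, and the groups overlapped throughout. The log2 fold changes were -0.06 in S vs C (SE 0.21), -0.04 in NS vs C (SE 0.21) and -0.01 in S vs NS (SE 0.22), with edgeR adjusted p of 0.895, 0.981 and 0.989.

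Txndc5 encodes ERp46, an isomerase that introduces disulfides quickly and with little selectivity. It was at 106 to 131 CPM in C (median 117), at 118, 131, 156, 135 and 164 CPM in NS and at 152, 152, 134, 163 and 143 CPM in S. All S animals were above all C animals, the only such case among the 7 genes in any of the 3 comparisons (4.19% of all genes did not overlap in S vs C). The log2 fold change was 0.33 in S vs C (SE 0.12), a 1.26-fold difference, with an edgeR adjusted p of 0.1006 just above the limit. DESeq2 called it, with an adjusted p of 0.0302. Over the other fits the edgeR adjusted p ran from 0.0175 with library totals alone to 0.359 in male animals alone, and without animal 36016 it was 0.1105. In NS vs C the log2 fold change was 0.25 (SE 0.12, edgeR adjusted p = 0.594), and in S vs NS it was 0.08 (SE 0.12, adjusted p = 0.842).

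Erp44 encodes a recycling chaperone of the early secretory pathway that returns ERO1 oxidases and unassembled secretory proteins to the ER. It was at 137 to 194 CPM in C (median 172), at 123, 155, 119, 189 and 155 CPM in NS and at 139, 133, 106, 150.2 and 137 CPM in S. All 5 S animals lay below 5 of the 6 C animals, and the NS animals spanned both groups. The log2 fold change was -0.34 in S vs C (SE 0.14, edgeR adjusted p = 0.155, DESeq2 adjusted p = 0.0997), -0.19 in NS vs C (SE 0.14, edgeR adjusted p = 0.757) and -0.15 in S vs NS (SE 0.15, edgeR adjusted p = 0.727). Without animal 36016 it was -0.27 in S vs C (edgeR adjusted p = 0.285).

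Pdia5 encodes PDIR, a less studied isomerase of the ER. It was at 113 to 168 CPM in C (median 122), at 211, 119, 107, 139 and 147 CPM in NS and at 214, 155, 79.6, 151 and 121 CPM in S. The SM2 animal was the highest of its group in all 3 groups, at 168, 211 and 214 CPM, while the BW animals ran from 79.6 to 155 CPM. In the fit with group and stock, a contrast chosen after seeing the data, as was that of sex, SM2 exceeded BW by a log2 fold change of 0.64 (SE 0.16, edgeR adjusted p = 0.0143, 1.55-fold, n = 3 against 13), with 21.8% of all genes called between the stocks. Left out in turn, the 3 SM2 animals gave edgeR adjusted p of 0.0243 without C animal 10876, 0.1002 without NS animal 10865 and 0.088 without S animal 10880, and the log2 fold change stayed between 0.59 and 0.74 over all 16 fits. The other 6 genes tested were not called for stock. Between the groups Pdia5 was not called, with log2 fold changes of 0.12 in S vs C (SE 0.22), 0.13 in NS vs C (SE 0.22) and -0.01 in S vs NS (SE 0.23) and edgeR adjusted p of 0.764, 0.913 and 0.996. Between females and males of S, 0 of the 7 genes tested were called by edgeR (none at an unadjusted p under 0.05), beside 0.396% of all genes.

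**Figure D3:**
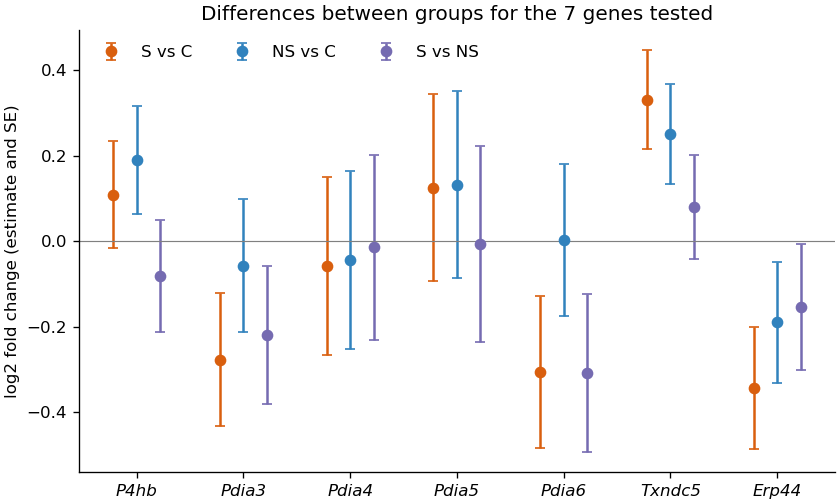
Log2 fold change with its SE (y axis) for the 7 genes tested (x axis) in the 3 comparisons between groups, from 1 edgeR fit over the 16 animals. All estimates lie between -0.34 and 0.33, Txndc5 is the highest and Erp44 the lowest in S vs C, and no gene was called.

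The scaling between libraries mattered for genes with differences this small. With library totals in place of TMM, the median of all genes in S vs C moved from 0.10 to 0.33 on the log2 scale and that of the 7 genes from -0.06 to 0.17, and P4hb and Txndc5 were then called (edgeR adjusted p = 0.0760 and 0.0175). Over all genes, 18.1% were called with library totals, beside 10.8% with TMM.

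Levels of the ER isomerases varied from animal to animal in partly separate sets. Over the 21 pairs of the 7 genes, Spearman rho across the 16 animals had a median of 0.315 and ran from -0.274 to 0.812, with 8 pairs over 0.5. Pdia3, Pdia4, Pdia6 and the lectin chaperone gene Calr ranked alike, with rho of 0.653 to 0.865 in their 6 pairs, and 0.582 to 0.836 without animal 36016. P4hb ranked most like Txndc5 (rho 0.762, and 0.861 without animal 36016), and Erp44 most like Pdia3 (0.750, and 0.696 without animal 36016). Txndc5 and Erp44 had the lowest value of the 21 (-0.274). Pdilt followed none of the family closely, with rho from -0.549 with Txndc5 to 0.597 with Erp44. These are descriptions over animals that share group, stock and depth, with n = 16 and no test.

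**Figure D4:**
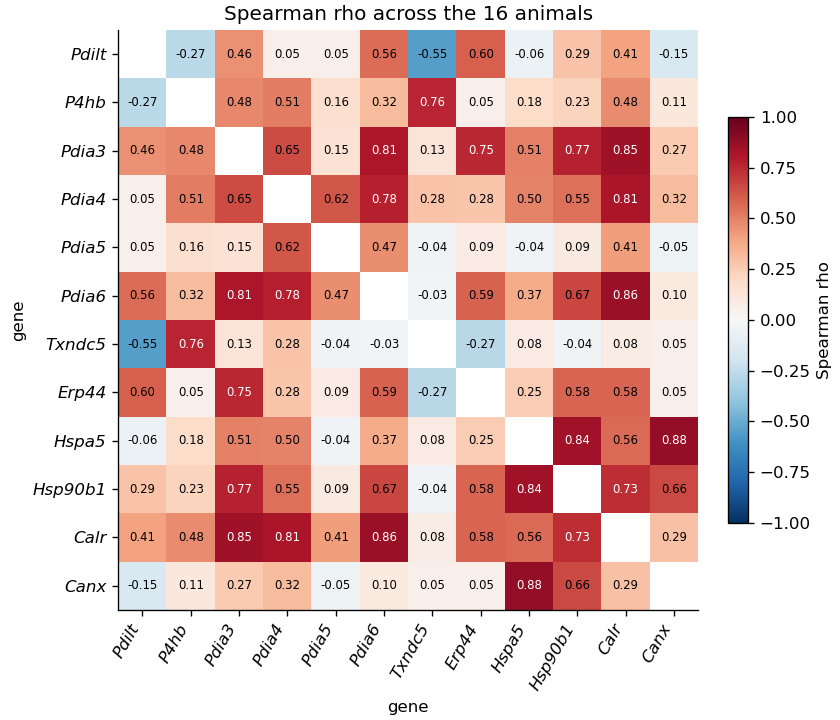
Spearman rho between pairs of genes across the 16 animals, as a colour scale from -1 to 1 with the value printed in each cell. Rows and columns are Pdilt, the 7 other family genes and the chaperones Hspa5, Hsp90b1, Calr and Canx. Pdia3, Pdia4, Pdia6 and Calr form a block of 0.653 to 0.865, and Pdilt has no value above 0.597.

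The genes that work with these isomerases were read from 6 lists (other thioredoxin-fold ER genes, oxidases and peroxidases, lectin chaperones and glucosidases, ER chaperones and cochaperones, unfolded protein response regulators, and partner subunits), which together held 59 genes, 54 in the table and 50 tested. In S vs C, 9 of the 50 were called (18%, against 10.8% of all genes). Of these, 7 were lower (5.36% of all genes were called lower) and 2 higher (5.39% of all genes), and 0 had a fold of at least 2 (4.06% of all genes passed both limits). Of the 50, 37 were below 0, with a median of -0.22 against 0.10 for all genes. In NS vs C and S vs NS, 0 of the 50 were called by edgeR, with 2 and 5 at an unadjusted p under 0.05 (8.29% and 10.9% of all genes), and DESeq2 called 0 and 1 (0.902% and 0.942% of all genes).

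**Figure D5:**
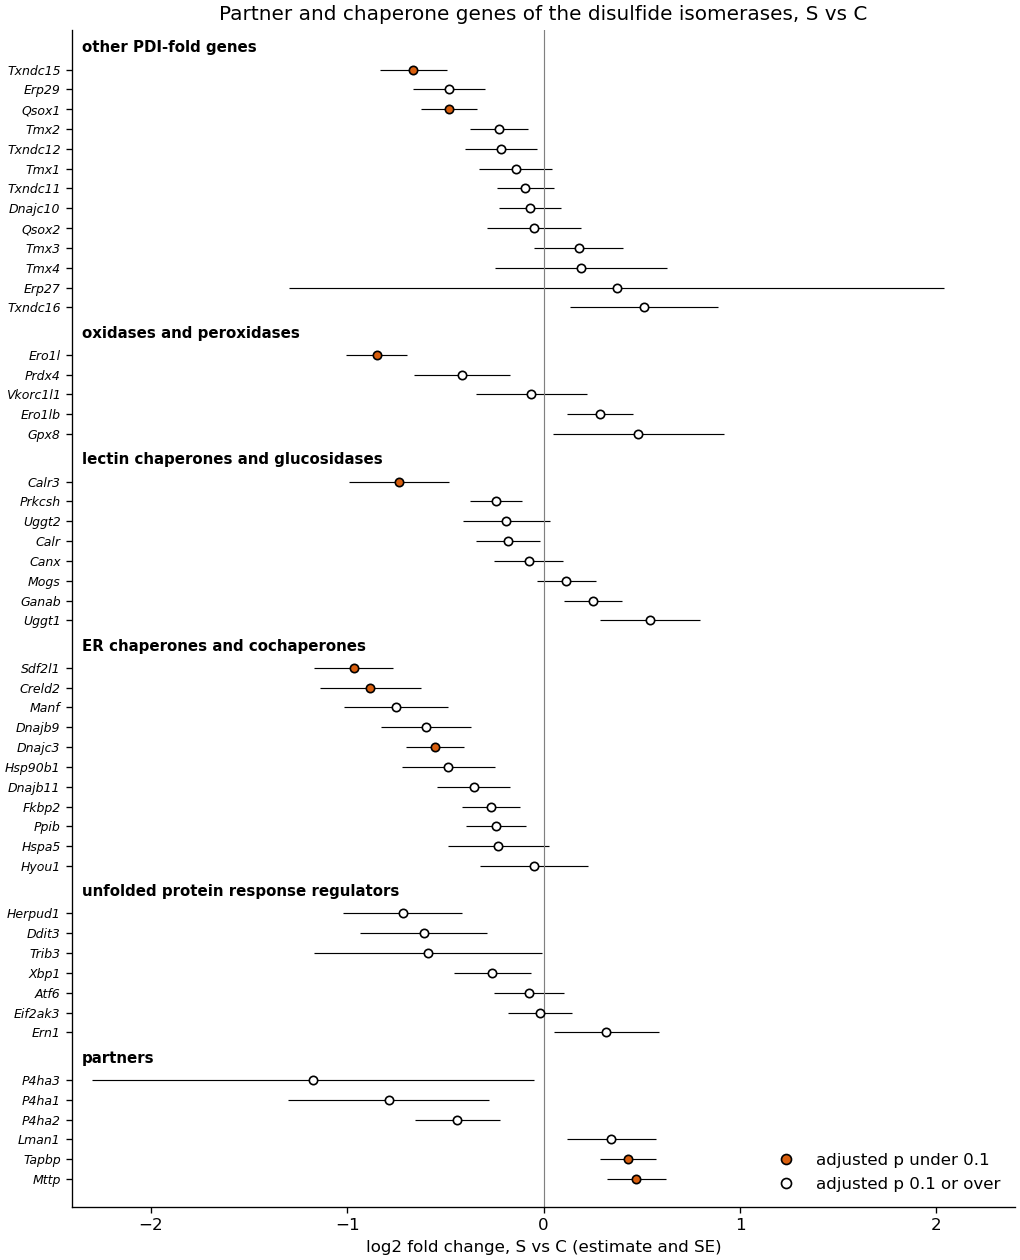
Log2 fold change with its SE in S vs C (x axis) for the 50 tested genes of the 6 lists (y axis, grouped by list). Filled points are the 9 genes called at an adjusted p under 0.1 (10.8% of all genes were called). All 11 ER chaperones and cochaperones lie below 0, 3 of them called lower (5.36% of all genes were).

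Among the oxidases, Ero1l, the main enzyme that reoxidises the isomerases, had the smallest adjusted p of the 50 genes. It was at 14.3 to 21.1 CPM in C (mean 17.9 ± 2.54, SD, n = 6), 11.85 to 15.9 CPM in NS (14.7 ± 1.65, n = 5) and 8.04 to 12.95 CPM in S (9.94 ± 1.82, n = 5), so the S animals were below every C animal and overlapped NS. The log2 fold change was -0.85 in S vs C (SE 0.16, edgeR adjusted p = 0.0150), and Ero1l was called under each of the 16 fits that left out 1 animal. In S vs NS it was -0.57 (SE 0.16, edgeR adjusted p = 0.292). Its paralog Ero1lb was at 39.1 ± 7.82, 39.6 ± 4.66 and 47.7 ± 11.4 CPM and was not called in S vs C (0.29, SE 0.17, edgeR adjusted p = 0.309). Of the 5 oxidases and peroxidases tested, 1 was called lower and 0 higher, beside 5.36% and 5.39% of all genes tested.

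All 11 ER chaperones and cochaperones tested were below 0 in S vs C, with a median of -0.49 beside 0.10 for all genes tested. Of the 11, 3 were called lower, beside 5.36% of all genes. Sdf2l1, a cochaperone in BiP complexes, was at 42.3 to 77.5 CPM in C and 22.2 to 38.6 CPM in S, without overlap (log2 fold change -0.97, SE 0.20, edgeR adjusted p = 0.0222). Creld2, an ER stress-responsive gene, was at 48.5 to 126 CPM in C and 37.0 to 57.7 CPM in S (-0.88, SE 0.26, adjusted p = 0.0610, and -0.81 with an adjusted p of 0.129 without animal 36016). Dnajc3, a BiP cochaperone, was at 251 to 341 CPM in C and 165 to 245 CPM in S (-0.55, SE 0.15, adjusted p = 0.0485). The abundant chaperones themselves were not called: Hspa5, which encodes BiP, was at 1212 ± 380.2, 1092 ± 477 and 1033 ± 236 CPM in C, NS and S (-0.23 in S vs C, SE 0.26, adjusted p = 0.617), and Hsp90b1, which encodes GRP94, at 1134 ± 404, 949 ± 279 and 809.9 ± 149.9 CPM (-0.49, SE 0.24, adjusted p = 0.218).

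Of the 13 other thioredoxin-fold genes tested, 2 were called lower in S vs C and 0 higher, beside 5.36% and 5.39% of all genes tested. Txndc15, which encodes a membrane-anchored family member, was at 91.3 to 135 CPM in C, 79.4 to 149 in NS and 58.4 to 87.7 in S (-0.66, SE 0.17, edgeR adjusted p = 0.0426). Qsox1, a secreted sulfhydryl oxidase, was at 337 to 467 CPM in C, 373 to 493 in NS and 209.7 to 343 in S (-0.48 in S vs C, SE 0.14, adjusted p = 0.0646, and -0.40 with an adjusted p of 0.131 without animal 36016). On the same diet, Qsox1 had the smallest adjusted p of the 50 genes, at -0.66 in S vs NS with no overlap (SE 0.15, adjusted p = 0.289), and was not called there.

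In the lectin cycle that Pdia3 serves, Calr3 was the 1 gene called in S vs C of the 8 tested, beside 10.8% of all genes tested. Canx was at -0.08 (SE 0.17, edgeR adjusted p = 0.828) and Calr at -0.18 (SE 0.16, adjusted p = 0.518) in S vs C. None of the 7 tested regulators of the unfolded protein response was called, with Xbp1 at -0.26 (SE 0.19, adjusted p = 0.430) and Ddit3 at -0.61 (SE 0.32, adjusted p = 0.255).

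Among the partner subunits, 2 of 6 were called in S vs C and both were higher in S, beside 5.39% of all genes called higher. Mttp, the large subunit that pairs with P4hb to load lipid onto apolipoprotein B, was at 339 to 425 CPM in C (mean 382 ± 36.1, SD, n = 6), 395 to 488 CPM in NS (452 ± 39.5, n = 5) and 397 to 709 CPM in S (529.7 ± 131, n = 5). Its log2 fold change in S vs C was 0.47 (SE 0.15, edgeR adjusted p = 0.0790). Tapbp, which encodes tapasin, the partner of Pdia3 in peptide loading, was at 54.8 to 77.8 CPM in C, 73.3 to 82.8 in NS and 66.8 to 119 in S (0.43, SE 0.14, adjusted p = 0.0838). Without animal 36016 the log2 fold changes were 0.44 for Mttp (edgeR adjusted p = 0.141) and 0.45 for Tapbp (adjusted p = 0.119). Neither P4hb nor Pdia3, their partners, was called in the same comparison.

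Of the 9 calls in S vs C, those of Ero1l, Sdf2l1 and Txndc15 were kept in all 16 fits that left out 1 animal, that of Dnajc3 in 14, Qsox1 and Creld2 in 10 each, Mttp and Tapbp in 8 each and Calr3 in 5. The 6 less stable calls were all lost without C animal 35975 and all lost without C animal 36007, and those other than Dnajc3 were lost without C animal 36001, S animal 35982 or S animal 36016. In these 5 fits 3.55% to 6.13% of all genes were called. Sex as a term and male animals alone both compare the 2 S males with C, so they are not separate checks. With sex as a term or with male animals alone, Qsox1, Creld2, Mttp and Tapbp were not called, and 9.75% and 7.93% of all genes were. With sex as a term their log2 fold changes were -0.58, -1.03, 0.36 and 0.45 in the same order, beside -0.48, -0.88, 0.47 and 0.43 without it. With library totals in place of TMM, Qsox1, Dnajc3 and Calr3 were not called (edgeR adjusted p = 0.223, 0.125 and 0.171). Ero1lb was then called higher (edgeR adjusted p = 0.0717).

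The study also asked whether genes kept their correlations with the rest of the transcriptome between groups, which it measured by the composite correlation Pc. For a gene, Pearson's r with every other varying gene is taken within each group, and Pc is the Pearson r between the 2 resulting lists, so values near 1 mean that its correlations were kept and negative values that they turned over. Here Pc was recomputed on the counts as deposited. None of the 8 genes was below -0.2, where 2.6% of all genes were in S vs C, 3.53% in S vs NS and 2.92% in NS vs C. Over the 8 genes the medians were 0.336, 0.169 and 0.103, beside 0.201, 0.174 and 0.102 for all genes. The paper's averages over all genes were lowest in S vs C and highest in S vs NS, while the medians here were highest in S vs C. In each comparison the paper also took more genes below -0.2 than were found here. The values here thus do not reproduce those of the paper, and the cause was not tested. In S vs C, Pdilt was at 0.114 and moved between 0.0252 and 0.276 as single animals were left out. Its S libraries held 0 to 5 reads, so its r values within S rest on counts at or near 0. Deposited counts carry the depth of each library, and with CPM by total count the median over the 8 genes in S vs C was 0.156 and Pdilt was at 0.187, so the order of the 8 genes depended on the scale. With 5 or 6 animals in a group each r rests on few points, so Pc is given as a description.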

How the data were processed

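The deposited table held raw read counts per gene symbol for 16 livers. Per the labels and methods, the authors aligned paired-end reads from a strand-marking kit with STAR 2.7.2 to HU_Pman_2.1 and counted uniquely mapped reads with featureCounts. The strand setting and the conversion to symbols are not given in the sources used here, so reads shared with an overlapping or near-identical gene could not be separated. Coordinates and sequences are not printed, and the gene order around Pdilt was read from RefSeq's HU_Pman_BW_mat_3.1. Transcript lengths were not used here, so levels were compared between animals and not between genes. The 8 genes, the lists and the tests were chosen with earlier results of these data known.

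The counts were tested with edgeR 4.0.16 (quasi-likelihood, TMM) in R 4.3.3, all 16 animals in 1 fit. A gene entered if any animal reached 0.5 CPM (12639 of 16910), p was adjusted by Benjamini-Hochberg over them, and genes were called at an adjusted p under 0.1, with a fold of 2 beside it. DESeq2 1.42.0, other scalings, filters, covariates and subsets were alternatives, and the contrasts of stock and sex were added after seeing the data. The scripts were tested on simulated counts. The named genes were the 8, the counted neighbours of Pdilt, listed genes called in a comparison (at most the 8 with the smallest adjusted p), the listed Hspa5, Hsp90b1, Ero1l, Ero1lb, Canx, Calr, Clgn, Calr3, Xbp1, Ddit3 and Mttp, and the 5 most and 3 least similar genes to Pdilt. Replicates were separate animals. Marker lists of 9 cell types were summed. Those of pancreatic acinar cells (0.563 to 19.0 CPM), kidney tubule (0 to 6.77), plasma cells (29.4 to 101), leukocytes (85.3 to 327), endothelium (85.2 to 260.0) and bile duct (3.15 to 31.1) had 0 genes called in S vs C, and stellate cells and fibroblasts (187 to 3340 CPM, highest in 36016) had 2 higher and 1 lower.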

Additional observations from a re-analysis of the deposited data

Results flagged for a closer look

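Of 24 groups of values (8 genes in 3 groups), 1 held an animal that lay far from the rest of its group. Pdia4 in NS animal 35937 was at 413.6 CPM, while the other 4 NS animals were at 249.7 to 286.7 CPM, so the gap was 0.775 of the whole range. Chance alone marks about 1 group in 20. Without that animal the log2 fold change of Pdia4 in NS vs C was -0.19, beside -0.04 with it, and the gene was called in neither case.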

How the results depend on the processing

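Over the 3 comparisons, Pdilt kept its direction under every alternative run, with log2 fold changes in S vs C of -4.80 to -3.78 as each animal was left out. Pdilt was chosen by its fold, and its S range overlapped neither C nor NS. Its direction in S vs C and S vs NS was thus fixed in advance and is no check. The number of the other 7 genes called in S vs C was 0, beside 10.8% of all genes. It was 2 with DESeq2 (14.3% of all genes) and with library totals (18.1%), and 1 with RLE size factors (10.8%), with at least 1 CPM in 5 animals (13.0%) and with stock as a term (15.9%). With an animal left out it was 0 to 1 (1, Txndc5, without NS animal 10865, where 12.3% of all genes were called). Called related genes in S vs C numbered 9, 5 with sex as a term (9.75% of all genes), 5 with male animals alone (7.93%), and 3 to 12 with an animal left out (3 without C animal 35975 or 36007, and 4 without C animal 36001 or S animal 35982 or 36016). With library totals they also numbered 9 (18.1% of all genes), but were not all the same genes. In S vs NS there was 1 with DESeq2 and 1 with sex as a term, where the genes called over the whole table went from 1 to 119 and 213. No gene reached a Pc under -0.2 in any alternative.

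Differences near 0 changed sign. In S vs C, P4hb was -0.040 with sex as a term and -0.039 with male animals alone, Pdia4 was 0.17 with library totals and 0.075 with BW animals alone, and Canx was 0.16 and 0.042 under the same settings. With library totals Calr was 0.054, Hspa5 0.017 and Acsm5 0.020. In NS vs C, library totals gave 0.041 for Pdia3 and 0.064 for Pdia4, BW animals alone gave 0.12 for Pdia4, and Pdia6 was -0.011 with DESeq2 and with RLE, -0.0087 with at least 1 CPM in 5 animals and -0.0046 with only the compared groups. In S vs NS, library totals gave 0.052 for P4hb, 0.11 for Pdia4 and 0.11 for Pdia5, and Pdia5 was 0.00024 with DESeq2, 0.00012 with RLE, 0.0022 with at least 1 CPM in 5 animals, 0.022 with sex as a term and 0.022 with male animals alone. With an animal left out, the ranges in S vs C were -0.15 to 0.11 for Pdia4, -0.062 to 0.28 for Pdia5 and -0.17 to 0.020 for Canx. In NS vs C they were -0.14 to 0.010 for Pdia3, -0.19 to 0.12 for Pdia4, -0.044 to 0.22 for Pdia5 and -0.075 to 0.078 for Pdia6. In S vs NS they were -0.14 to 0.0029 for P4hb, -0.10 to 0.14 for Pdia4 and -0.19 to 0.17 for Pdia5. Apart from the scaling, the cause of these changes was not tested. Depth limits Pdilt alone among the 8, since its S libraries held 0 to 5 reads.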

Other observations

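Within an animal, the balance between pairs of the isomerases can be read without any scaling between libraries. Both ratios below were chosen after their values were seen and carry no test. The count of Txndc5 over that of Erp44 was 0.632 to 0.786 in the C animals (mean 0.702 ± 0.0568, SD, n = 6), 0.711 to 1.30 in NS (0.975 ± 0.225, n = 5) and 1.04 to 1.27 in S (1.12 ± 0.087, n = 5), so every S animal exceeded every C animal and NS spanned the space between them. The count of P4hb over that of Pdia3 was 1.39 to 1.95 in C (1.61 ± 0.219), 1.60 to 2.24 in NS (1.90 ± 0.263) and 1.90 to 2.45 in S (2.06 ± 0.222), with overlap between all groups.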
